A study of Bos taurus with 12 samples.

Results

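Genes that write, read or erase chromatin marks, oxidise methylated cytosine or serve the piRNA pathway were examined in a comparison of sperm DNA methylation between bulls with low and high daughter fertility. Members were chosen by gene name. An autosomal locus (chromosomes 1 to 29) was taken when the authors' annotation put it at most 10 kb from a feature of a gene whose full name held one of 13 terms, such as histone, lysine demethylase, SWI/SNF, bromodomain, methylcytosine, polycomb, piwi or tudor, and did not hold zinc finger. This gave 30 of the 17730 listed single CpG sites, at 23 genes, and 6 of the 7290 listed tiles of 500 bp, at 3 genes. Together these are 25 genes, since SWI/SNF subfamily a, member 2 was listed in both tables. The rule uses no measured value, but it was chosen with earlier results of these data known. The loci analysed here lie on 23 autosomes in the site table and 26 in the tile table, so the list does not show all chromatin genes of the genome.

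The study profiled genomic DNA of sperm in 12 Bos taurus samples by enzymatic methylation sequencing, which converts unmethylated cytosines with enzymes in place of bisulfite. By their labels 6 samples come from bulls with low daughter fertility and 6 from bulls with high daughter fertility, with no breed, age or batch given. The values are those of the authors' deposited tables, namely a difference in percentage points of methylation, a p-value and a q-value for each locus. Neither labels nor headers say which group was subtracted from which, so a difference is given as positive or negative as listed. No per-sample levels or read depths were analysed here, so no value has a spread between samples, and the sperm label could not be checked against markers.

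In mammals, methyl groups on cytosine can be removed in steps that begin when TET enzymes oxidise them, and histone-modifying enzymes and remodellers open or close the DNA around them. In the male germ line piRNAs, small RNAs bound by PIWI proteins, silence transposons, and tudor proteins hold this machinery together. Most histones of the sperm nucleus are replaced by protamines, so the marks that remain on DNA and on the leftover histones are much studied in male fertility.

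A locus was called when the authors' q-value was below 0.05 and the difference at least 10 points in either direction. Of the 30 member sites 1 was called (3.33%), and it was positive. Among all 4207 autosomal sites within 10 kb of a gene feature 4.14% were called, 1.66% positive and 2.47% negative, so the share at the member genes lies near that of genes at large. A q below 0.05 at any size of difference was listed for that site alone, against 5.75% of the 4207. By gene, 1 of 23 member genes (4.35%) had a called site, against 112 of 2123 genes (5.28%). An unadjusted p below 0.05 was listed for 6 member sites (20%) and for 20.8% of the 4207. The median size of the difference was the same in both, at 2.60 points. Members need a gene with a full name, which 3276 of the 4207 sites have. Of these 3276 sites 3.27% were called, 5.04% had q below 0.05 and 19.6% an unadjusted p below 0.05. Their median size of difference was 2.38 points.

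The called site lies in an intron of chromodomain helicase DNA binding protein 7 (ENSBTAG00000021841), an ATP-driven nucleosome remodeller whose loss causes CHARGE syndrome in humans. In the authors' deposited table it had a difference of 18.45 points (p = 0.00189, q = 0.0209) at position 26414006 of chromosome 14, on the ARS-UCD1.2 build. The intron runs from position 26402414 to 26416383, and the site is 2377 bp from its nearer edge. Of the 4207 sites, 2.57% had a difference at least as large in either direction. This CpG stands alone in the table: the nearest other listed site was 182366 bp away, with a difference of 1.25 points in the authors' deposited table. No listed tile covered it, and the nearest called site on the chromosome was 12575550 bp away.

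A further 3 member sites differed by at least 10 points without reaching q below 0.05. Lysine demethylase 5A (ENSBTAG00000020472), which strips methyl groups from lysine of histone H3 at promoters, had an intronic site at 18.07 points (p = 0.00417, q = 0.0563; chromosome 5, position 107252201) per the authors' deposited table. Bromodomain and WD repeat domain containing 1 (ENSBTAG00000013602), an acetyl-lysine reader without which mice of both sexes are infertile, had an intronic site at -12.44 points (p = 0.00686, q = 0.0686; chromosome 1, position 139292869) per the authors' deposited table. Tet methylcytosine dioxygenase 3 (ENSBTAG00000022381), the enzyme that oxidises the paternal genome in mouse zygotes, had an intronic site at -11.78 points with p = 0.101 and q = 0.283 per the authors' deposited table. Sites with at least 10 points of difference at any q were 4 of 30 (13.3%) at the member genes and 10.1% of the 4207. Among the 3276 sites at genes with a full name they were 7.6%.

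**Figure D1:**
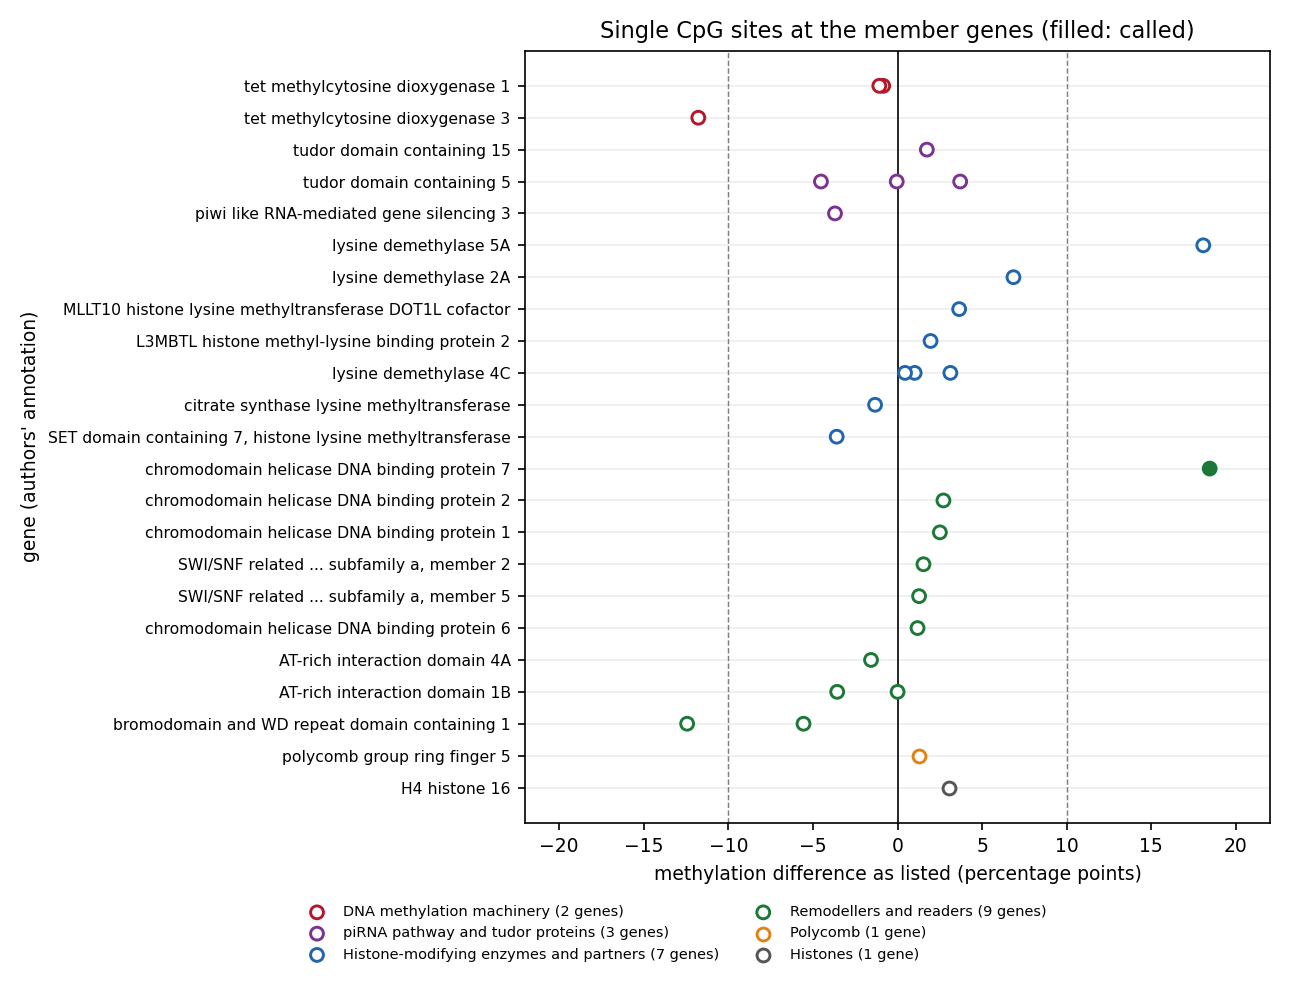
Each circle is 1 CpG site, placed on the horizontal axis by the authors' methylation difference in percentage points, with the genes down the page coloured by role and dashed lines at 10 points in either direction. The single filled circle is the called site of chromodomain helicase DNA binding protein 7 at 18.45 points, and 24 of the 30 sites lie less than 5 points from 0.

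Whether a p-value of this size reaches q below 0.05 depended on the chromosome. Within each of the 24 chromosomes of the site table the authors' q never fell by more than 1e-06 from a site to the one with the next larger p, while over the whole table it did so at 7536 steps. On 21 of the 24 chromosomes at least 98% of sites with q above 0.0001 had a q that was a constant multiple, to within 0.1%, of a Benjamini-Hochberg value computed over the listed sites of that chromosome alone. Chromosomes 7, 15 and 16 were the exceptions. The multiples ranged from 0.755 to 0.877. The largest p listed with q below 0.05 was 0.00756 on chromosome 14, the highest of the autosomes, and 0.00291 on chromosome 5, 0.00331 on chromosome 1 and 0.000113 on chromosome 15. The sites of lysine demethylase 5A (p = 0.00417) and of bromodomain and WD repeat domain containing 1 (p = 0.00686) per the authors' deposited table therefore lay above the limit of their own chromosome and below that of chromosome 14. The called site of chromodomain helicase DNA binding protein 7 (p = 0.00189 per the authors' deposited table) lay above the limits of other chromosomes. These were chromosomes 10 (0.00122), 15, 17 (0.00145), 19 (0.000958) and 22 (0.00174). With p-values adjusted at once over all 17730 listed sites by the Benjamini-Hochberg method, an alternative chosen after seeing the data, the 3 sites had adjusted p of 0.0347 for chromodomain helicase DNA binding protein 7, 0.0558 for lysine demethylase 5A and 0.0748 for bromodomain and WD repeat domain containing 1, and the first alone was called, while 4.25% of the 4207 sites were called on this adjustment.

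**Figure D2:**
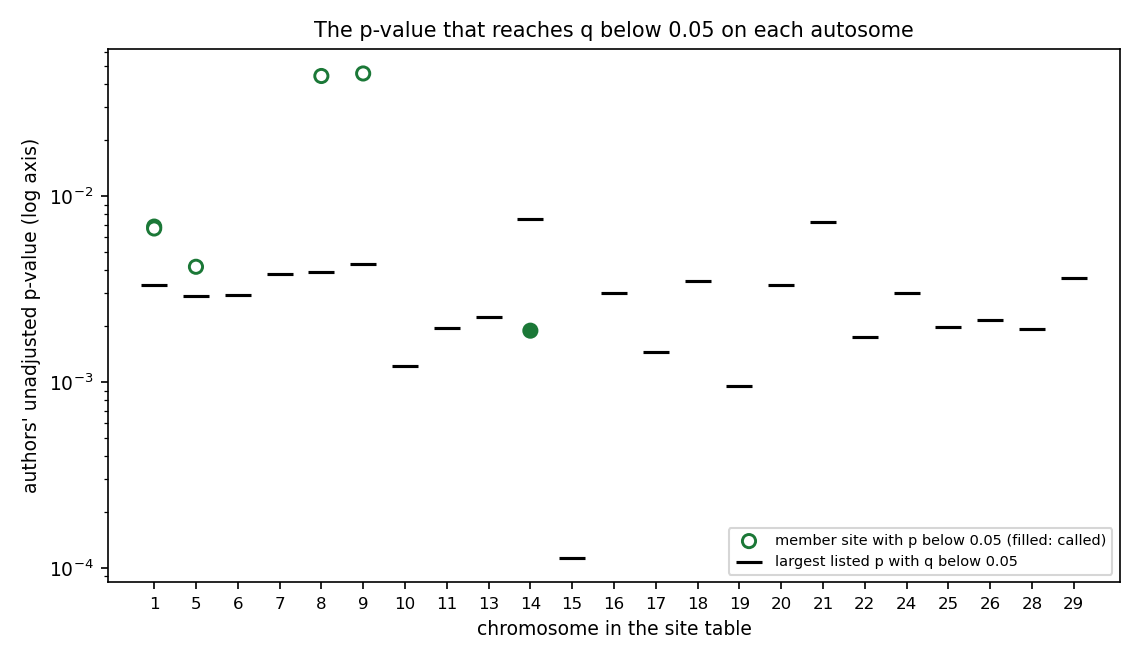
For each autosome in the site table, a bar marks the largest of the authors' p-values that came with q below 0.05 (log axis), and circles mark the 6 member sites with p below 0.05. The filled circle, on chromosome 14, lies under its bar, while the open circles on chromosomes 1, 5, 8 and 9 lie above theirs.

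The DNA methylation machinery was represented by the 3 TET dioxygenases, which start the removal of methyl groups from cytosine, and by no DNA methyltransferase among the loci analysed within 10 kb. All 3 sites at tet methylcytosine dioxygenase 1 and 3 were negative and none was called. Besides the site of tet methylcytosine dioxygenase 3, these were a pair 16 bp apart in an intron of tet methylcytosine dioxygenase 1 (ENSBTAG00000037756), an enzyme needed in mice for erasing imprints in germ cells, at -0.85 points (q = 0.747) and -1.08 points (q = 0.412) per the authors' deposited table. Tet methylcytosine dioxygenase 2 (ENSBTAG00000017682), often mutated in blood cancers, appeared with tiles only. Its 3 overlapping tiles begin at positions 19899201, 19899301 and 19899401 of chromosome 6, where the 3′ untranslated region (19898416 to 19899254) meets coding sequence (19899255 to 19900744). They were positive, at 1.65, 1.30 and 0.61 points with q of 0.0129, 0.0207 and 0.0756 in the authors' deposited table. All of these differences lie under 2 points, and neighbouring tiles share CpG sites, so the 3 values are not independent.

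The piRNA and tudor genes had 5 sites at 3 genes, 3 of them negative and 2 positive, and none was called or had p below 0.05. Tudor domain containing 5 (ENSBTAG00000002407), which male mice need for transposon silencing and for making sperm, had sites in 3 introns. In the authors' deposited table they stood at -4.53 points (q = 0.437), -0.05 points (q = 0.840) and 3.70 points (q = 0.471), so this gene showed no common direction. Piwi like RNA-mediated gene silencing 3 (ENSBTAG00000015526), a piRNA-binding protein that mice lack, had an intronic site at -3.70 points (q = 0.322) per the authors' deposited table. Tudor domain containing 15 (ENSBTAG00000051889) had a site in its coding sequence at 1.73 points (q = 0.678) per the authors' deposited table.

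Histone-modifying enzymes and their partners had 9 sites at 7 genes, 7 positive and 2 negative, with a median difference of 1.95 points. Only that of lysine demethylase 5A reached 10 points. Lysine demethylase 4C (ENSBTAG00000043987), which acts on the silencing mark at lysine 9 of histone H3, had 3 intronic sites, all positive, at 3.12 points (p = 0.0443, q = 0.186), 1.01 points (q = 0.409) and 0.44 points (q = 0.830) per the authors' deposited table. The first and the second lie 9 bp apart. Lysine demethylase 2A (ENSBTAG00000044032), which binds unmethylated CpG islands, had an intronic site at 6.85 points (p = 0.0762, q = 0.259) per the authors' deposited table. MLLT10 histone lysine methyltransferase DOT1L cofactor (ENSBTAG00000044074), a partner of the enzyme DOT1L, had an intronic site at 3.64 points (q = 0.423) per the authors' deposited table. L3MBTL histone methyl-lysine binding protein 2 (ENSBTAG00000030222), a reader of a polycomb-type complex rather than an enzyme, had a site 548 bp outside an exon, in the authors' promoter class, at 1.95 points (q = 0.590) per the authors' deposited table. The 2 negative sites belonged to SET domain containing 7, histone lysine methyltransferase (ENSBTAG00000003581), at -3.60 points (q = 0.357), and to citrate synthase lysine methyltransferase (ENSBTAG00000022293), at -1.33 points (q = 0.426), per the authors' deposited table. The second is a mitochondrial enzyme that methylates citrate synthase and not chromatin, and it is a member by its name alone.

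Remodellers and readers were the largest group, with 11 sites at 9 genes, 6 positive, 4 negative and 1 at 0, and a median difference of 1.18 points. Besides the called site they included both intronic sites of bromodomain and WD repeat domain containing 1. Its second site, 37238 bp from the first, was also negative, at -5.56 points (p = 0.00670, q = 0.0686) per the authors' deposited table. AT-rich interaction domain 1B (ENSBTAG00000002728), a subunit of the BAF remodelling complex, had intronic sites 8 bp apart at -3.57 points (p = 0.0457, q = 0.217) and 0.00 points (q = 0.852) per the authors' deposited table. AT-rich interaction domain 4A (ENSBTAG00000018898), a retinoblastoma-binding protein, had an intronic site at -1.57 points (q = 0.673) per the authors' deposited table. The other 3 listed helicases of the chromodomain family had small positive values. In the authors' deposited table these were 2.50 points in coding sequence of protein 1 (ENSBTAG00000020860, q = 0.225), 2.71 points in an intron of protein 2 (ENSBTAG00000017776, q = 0.609) and 1.18 points in an intron of protein 6 (ENSBTAG00000005733, q = 0.496). SWI/SNF subfamily a, member 5 (ENSBTAG00000003399), the motor of ISWI remodellers, had an intronic site at 1.27 points (q = 0.417) per the authors' deposited table.

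The gene listed in both tables, SWI/SNF subfamily a, member 2 (ENSBTAG00000007494), is a motor of the BAF complex. Its site stood at 1.53 points (q = 0.609; chromosome 8, position 42408554) per the authors' deposited table. That site was annotated to an intron listed with its start (42401350) after its end (42369824), lies outside it and was put in the promoter class. By position it falls between that intron and the gene's 5′ untranslated region (42546983 to 42547445). It thus lies within the span of the gene's listed features, and the promoter class does not place it at the gene's start. Its 2 overlapping tiles begin at positions 42546901 and 42547001, over the 5′ untranslated region from 42546983 to 42547445, and lie more than 138 kb from the site. They stood at -0.13 points (q = 0.255) and -0.28 points (q = 0.112) per the authors' deposited table. Site and tiles thus had different signs, with values near 0 and at different places. Of the 4207 sites 4.85% were annotated to a feature written in this reversed way.

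The polycomb and histone genes had small differences. Polycomb group ring finger 5 (ENSBTAG00000004964), a subunit of a polycomb repressive complex, had a site in its 3′ untranslated region at 1.25 points (q = 0.432) per the authors' deposited table. H4 histone 16 (ENSBTAG00000030504) had a site annotated to an intron at 3.06 points (p = 0.0736, q = 0.231) per the authors' deposited table. That intron is listed from position 95139502 to 95152752. H4 clustered histone 14 (ENSBTAG00000032453), another source of the core histone H4, had 1 tile at 0.02 points (q = 0.429) per the authors' deposited table. This tile too was annotated to an intron, listed from 20765931 to 20767458. Whether these introns belong to the histone transcripts was not checked, so both gene assignments are uncertain.

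Positive differences outnumbered negative ones at the member genes, by small amounts. Of the 30 sites 12 were negative (40%), 17 positive and 1 at 0, and the median difference was 1.09 points. Among the 4207 sites 53.5% were negative and the median was -0.45 points. For the 3276 of them at genes with a full name these were 52.4% and -0.30 points. By gene, 14 of the 23 had positive values only, 7 negative values only and 2 were mixed or at 0. The 24 member sites inside introns had a median of 0.22 points and 45.8% were negative, against -0.13 points and 51.7% of the 2147 sites of the 4207 inside introns. No test was made of these shares. The share called inside introns was 4.17% at member genes (1 site) and 3.17% among the 2147.

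**Figure D3:**
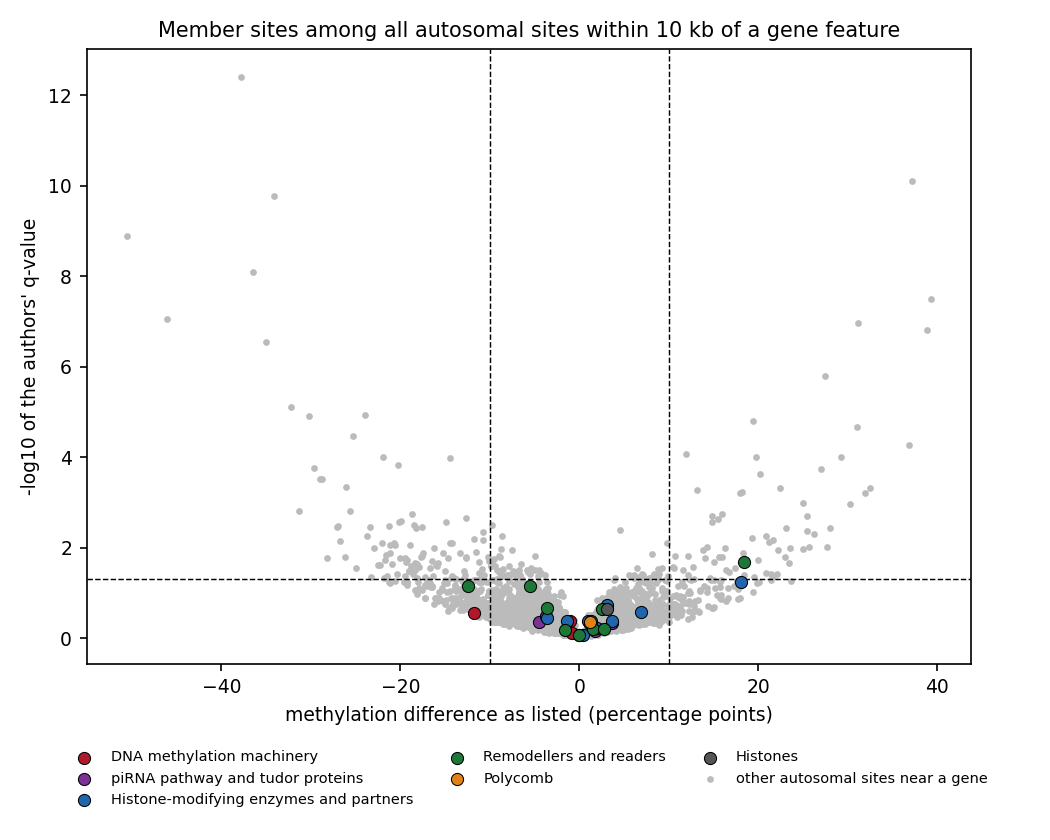
Authors' methylation difference in percentage points (horizontal) against the −log10 of the authors' q-value (vertical) for the member sites, coloured by role, over the other autosomal sites within 10 kb of a gene feature in grey, with dashed lines at 10 points and q = 0.05. Member sites run from -12.44 to 18.45 points, inside the range of -50.57 to 39.30 points of all 4207 sites.

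Member sites were placed inside genes and stood apart from other listed sites. Inside the annotated feature lay 28 of 30 (93.3%), against 59% of the 4207, and 25 (83.3%) had an intron as their feature, against 55.9%. The promoter class held 2 (6.67%) and 19.6%. Among the 2 was the site of SWI/SNF subfamily a, member 2, which by position lies between listed features of its gene. Part of these gaps lies in the names, since members need a gene with a full name. Among the 3276 sites at such genes 68.5% lay inside the feature, 63.6% had an intron and 15.8% were in the promoter class. The shares by distance to other sites, given next, were not computed for those 3276. No other listed site lay within 10 kb for 21 of the 30 member sites (70%), against 45.3% of the 4207. None of the 30 had another called site within 100 kb, where 33.4% of the 4207 did. None lay under a listed tile, so the sites of these genes have no second measurement in the tile table. The share of the 4207 sites under a tile was not computed, so this cannot be read as particular to these genes. Of the 23 genes 18 had a single site, and the member sites were spread over 15 chromosomes with at most 4 on each.

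Tiles at the member genes were not called. None of the 6 passed, and none had an unadjusted p below 0.05 in the authors' deposited table, against 2.01% called and 60% with such a p among the 1791 autosomal tiles within 10 kb of a gene feature. The 2 with q below 0.05 (33.3%) were those of tet methylcytosine dioxygenase 2, and 67.2% of the 1791 tiles had such a q. Their p-values of 0.0746 and 0.121 in the authors' deposited table lie above their q-values. On 23 of the 27 chromosomes of the tile table the largest p listed with q below 0.05 was 0.05 or more, and on chromosome 6 it was 0.303. Benjamini-Hochberg adjustment over all listed tiles gave the same pair adjusted p of 0.108 and 0.167. The 6 tiles ran from -0.28 to 1.65 points, with a median of 0.32, against -0.39 among the 1791. Of the 1791 tiles 1256 were at genes with a full name. Among those 1.27% were called, 53.6% had an unadjusted p below 0.05, 61.1% had q below 0.05 and the median was -0.23 points.

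Other chromatin genes, taken from a list of names outside the rule such as SET domain, cohesin, PHD finger, high mobility group and maelstrom, had 30 sites at 26 genes, with 0 calls by the authors' q (4.14% of the 4207) and 0 with Benjamini-Hochberg adjustment over all listed sites (4.25% of the 4207). A share of 4.14% of 30 sites amounts to about 1 site. An unadjusted p below 0.05 was listed for 6 of them (20%), against 20.8% of the 4207. The median difference was -0.47 points, against -0.45, and 53.3% were negative, against 53.5%. Their 19 tiles at 8 genes held 0 calls too, against 2.01% of the 1791. Of these tiles 16 (84.2%) had q below 0.05, against 67.2% of the 1791, and 15 (78.9%) an unadjusted p below 0.05, against 60%. Overlapping tiles of the same gene share CpG sites.

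The distance limit is measured to the nearer edge of the annotated feature, also for a locus inside it, so sites deep in long introns fall outside the rule. The terms matched 96 listed sites, of which 30 are members. The member nearest to the limit was the site of tet methylcytosine dioxygenase 3, at 8120 bp. Just past the limit were sites inside CECR2 histone acetyl-lysine reader (10580 bp, 0.32 points), lysine demethylase 5B (11034 bp, 1.14 points) and AT-rich interaction domain 1B (11511 bp, 3.45 points), by the authors' deposited table. A pair of sites at 11488 and 11494 bp lay outside the listed intron of SWI/SNF subfamily a, member 2. Like the member site of that gene, they fall by position between this intron and the 5′ untranslated region. By the authors' deposited table they had positive differences below 2 points, the nearer one at 0.20 points. Farther in, at 47449 bp from the edges of an intron of lysine demethylase 4C, the authors' deposited table gave 0.12 points. None of these was called. Past the limit and outside the annotated feature were 21 sites in all, of which 2 were called, while 4.51% of the 2951 autosomal sites so placed for any gene were called. These were 1 site at 10.28 points (q = 0.0420), 14927 bp from H2B.L histone variant 1 on chromosome 20, and 1 at -27.09 points (q = 0.00601), 146576 bp from methyl-CpG binding domain protein 2 on chromosome 24, in the authors' deposited table. Bromodomain adjacent to zinc finger domain 1A and 1B, remodeller subunits that the rule drops for their names, had sites at -3.23 and 3.55 points in the authors' deposited table, and neither was called.

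**Figure D4:**
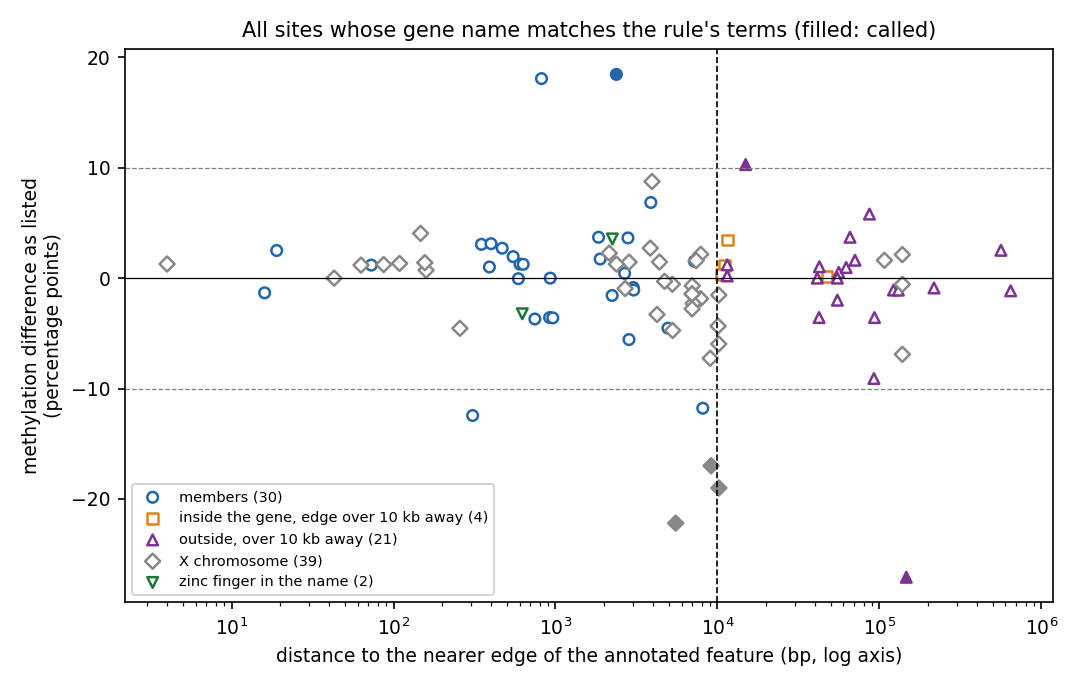
All 96 sites whose gene name matches the terms, by distance to the nearer edge of the annotated feature (horizontal, log axis) and by the authors' methylation difference in percentage points (vertical). Filled symbols are called sites, and the dashed vertical line is the 10 kb limit: 1 filled symbol is a member, 2 lie past the limit on autosomes and 3 are on the X chromosome.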

How the data were processed

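DNA of 12 bull sperm samples went through enzymatic methylation sequencing, per the labels' protocols. The build ARS-UCD1.2 and the tools Bismark, methylKit and Trimmomatic come from the submitters' processing notes. Their roles, settings and any coverage minimum are not given in the sources used here. Each p-value, q-value and signed difference in percentage points was computed by the authors and deposited per locus, and depth is unknown. The authors' distance, in bp, runs from a locus's start to the nearer edge of the feature, which held to within 1 bp at every locus.

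Members, counts, medians and Benjamini-Hochberg values were computed with Python 3.11.15, pandas 2.3.3 and numpy 2.4.6, and selection and adjustment were tested on simulated data. No test between the groups was run here. The 6 role groups follow the gene's name, and every member gene is described. The members and lists were chosen with earlier results of these data known. Gene names are those of the authors' annotation. Alternatives were other limits of difference, q and distance, 1 value per CpG or gene, fewer or more genes and other adjustments.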

Additional observations from a re-analysis of the deposited data

How the results depend on the processing

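The 10 summary results took 158 values under alternatives. With so few loci, 138 of these lay within 1.5 times a reported count or inside the wide exact binomial interval of a reported share or median, which does not make them close. Some of the 138 could not differ, since the adjustments leave medians and signs as they are. Averaging the strands of a CpG left all 30 sites as they were. The median of member sites ranged from 0.07 to 1.25 points and stayed positive, the share of negative sites from 31.6 to 46.7% and that of negative sites among calls from 0 to 66.7% (with the X chromosome added). For tiles the median ranged from -0.13 to 0.61 points, so its sign turned, the negative share from 33.3 to 66.7% and the share with q below 0.05 from 0 to 72% (with the wider names added). Only 1 site was called, that of chromodomain helicase DNA binding protein 7, so counts of calls moved with it. The count of called sites, the count of genes with one and the share called were 0 at 20 points of difference, at q below 0.01, at most 2 kb from the feature edge and without that gene. At up to 50 kb 2 sites at 2 genes were called, and with the X chromosome added 3 sites at 2 genes. The share of member tiles with q below 0.05 was 0 at q below 0.01, without tet methylcytosine dioxygenase 2, and with Benjamini-Hochberg adjustment over all tiles or within chromosomes, and without that gene the median of the tiles was -0.13 points. By gene, 50 of 52 lowest q-values kept their side of 0.05 under the adjustments, a count that does not measure stability. Only chromodomain helicase DNA binding protein 7 and the tiles of tet methylcytosine dioxygenase 2 began below 0.05. The adjustment within chromosomes gave values above the authors' q, so genes that began above 0.05 could not cross it there. The first gene stayed below, at 0.0347 over all sites and 0.0265 within its chromosome. The 2 lost values were those of the tile of tet methylcytosine dioxygenase 2 at 1.65 points, which became 0.108 over all tiles and 0.0876 within its chromosome. The adjustments, the X chromosome, zinc finger names, reversed features and deep intronic sites were added after seeing the data. No feature lies at a distance of 0 bp by the authors' measure among members, so sites inside the feature were taken for that alternative. No paired analysis was possible because no per-sample values were analysed here, and for the same reason no replicate was left out.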

Other observations

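The X chromosome, which the rule leaves out, held 39 of the 96 sites whose gene name matched the terms, against 57 on autosomes. Of all 17730 listed sites 4228 lie on the X chromosome. The largest p listed there with q below 0.05 was 0.00963, the highest of the 24 chromosomes of the site table. The share of the 4228 sites that were called was not computed, so calls on the X chromosome cannot be read as particular to these genes. The gene histone H2B 1/2 (ENSBTAG00000014287), one of the histone H2B genes, had 31 listed sites within 9140 bp of its coding sequence, 26 of them in the promoter class. Of these 15 were negative, 15 positive and 1 at 0. The 2 called sites, in the authors' deposited table, stood at -16.99 points (q = 0.00158) and -22.19 points (q = 0.00323), 9140 bp and 5522 bp before the coding sequence. The other sites, which lie between these and closer in, ran from -7.26 to 8.75 points per the authors' deposited table, and of them the site 257 bp away (-4.55 points, q = 0.0357) and one inside the coding sequence (4.05 points, q = 0.0458) had q below 0.05. Its 6 tiles, which lie at the coding sequence, ran from -0.24 to 0.45 points, and none was called.

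SWI/SNF subfamily a, member 1 (ENSBTAG00000002292), an X-linked remodeller motor, had 7 sites, all more than 10 kb from its feature and 6 of them negative. The called one stood at -19.00 points (q = 0.000161), 10204 bp away, and the site 16 bp from it was at -1.53 points (q = 0.627) per the authors' deposited table. The pair thus differed by more than 10 points although they are neighbours on the same strand. Further sites close by on that strand, 10185 bp and 10091 bp from the feature, were also negative. They stood at -5.96 points (q = 0.0434) and -4.34 points (q = 0.473) per the authors' deposited table.

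Piwi like RNA-mediated gene silencing 1, the PIWI protein of meiotic and later male germ cells in mice, was the closest gene of 3 sites on chromosome 17, at 56127 to 70681 bp. They ran from 0.52 to 1.62 points and none was called in the authors' deposited table.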
